A study of Mus musculus with 4 samples.

Results

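The H19-Igf2 and Kcnq1ot1 imprinted domains lie next to each other on distal mouse chromosome 7, and 9 of their genes are described here in epidermis in which the E3 ligase of Polycomb repressive complex 1 (PRC1), a writer of histone H2A ubiquitin, was mutated. The 9 genes, of 24453 gene symbols counted, are H19, Igf2, Kcnq1ot1, Ascl2, Cd81, Tssc4, Slc22a18, Phlda2 and Nap1l4. They were chosen by name and chromosomal position from a list drawn up with the counts of these same 4 libraries in view. Their difference between I53A and CTL is therefore given as a description, with a log2 fold change and its SE but no test. Tests are given for genes outside that list. The other gene lists were also chosen with earlier results of these data known, so their p-values and counts are not free of that choice.

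RNA was sequenced from mouse epidermal cells at postnatal day 0, sorted from back skin by surface markers of the basal interfollicular layer. The 2 I53A libraries came from mice labelled Ring1a-/- Ring1b-/I53A, which lack Ring1a (gene Ring1) and carry a null allele of Ring1b (gene Rnf2) over an allele with the I53A substitution, whose product is catalytically inactive. The 2 CTL libraries came from mice labelled as controls, for which the labels name no allele. The labels name no strain, no Cre driver and no litter for either group, and state no number of animals per library. The I53A libraries differed in sex by their reads and so did not come from a single animal, while nothing says whether the CTL libraries came from separate animals. P-values therefore measure the spread between these libraries, which may in part be technical.

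In both domains the active copy of each imprinted gene depends on the parent it came from. Between H19 and Igf2 lies a control region that binds the insulator protein CTCF when it is unmethylated, on the maternal copy, so that enhancers act on H19 there and on Igf2 on the paternal copy. Kcnq1ot1 is a long RNA made from the paternal copy only, from a promoter inside an intron of the potassium channel gene Kcnq1. In mouse placenta and stem cells it is known for silencing neighbouring genes on its own chromosome together with Polycomb complexes. A count per gene adds both copies and cannot tell them apart.

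Of the 9 genes, 7 have a promoter in the RefSeq table for GRCm38.p6, each as a window of 300 bases from 250 before to 50 after a transcript start. Both promoters with the most copies of CCAAT, the core of the CCAAT box bound by the factor NF-Y, are shown. They belong to Kcnq1ot1, the RNA that defines a domain, and to Ascl2. The log2 fold change of Ascl2 was the largest in size of the 9 genes but uncertain (-1.03 ± 0.43 SE). Its replicates were 1.88-fold apart in I53A and 1.87-fold in CTL. Capitals mark CCAAT on the gene's strand or ATTGG, the same word on the other strand. Kcnq1ot1 lies on the minus strand and its window is chr7:143296498-143296797, and Ascl2 lies on the minus strand with the window chr7:142969215-142969514.
Kcnq1ot1: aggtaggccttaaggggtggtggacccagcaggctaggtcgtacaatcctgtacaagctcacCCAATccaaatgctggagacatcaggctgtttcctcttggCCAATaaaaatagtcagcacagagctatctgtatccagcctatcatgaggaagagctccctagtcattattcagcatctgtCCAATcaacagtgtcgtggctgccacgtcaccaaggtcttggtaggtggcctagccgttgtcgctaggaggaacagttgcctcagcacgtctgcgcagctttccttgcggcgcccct
Ascl2: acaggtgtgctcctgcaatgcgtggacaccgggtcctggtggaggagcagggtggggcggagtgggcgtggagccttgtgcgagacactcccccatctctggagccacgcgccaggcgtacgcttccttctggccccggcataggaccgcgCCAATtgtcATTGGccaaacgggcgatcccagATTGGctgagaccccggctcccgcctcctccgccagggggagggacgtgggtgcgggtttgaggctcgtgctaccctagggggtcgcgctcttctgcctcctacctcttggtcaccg

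Each of these windows holds 3 copies of the word. In Kcnq1ot1 all 3 are on the gene's strand, and in Ascl2 1 is on the gene's strand and 2 are on the other. Among 32851 windows of the table, 37.4% hold the word at least once on either strand and 3.37% hold it 3 times or more. Phlda2, Tssc4 and 1 of the 4 windows of Igf2 hold 1 copy each, and the windows of Cd81 and Slc22a18 hold none. The Kcnq1ot1 window has 9 CG dinucleotides, against a median of 7.0 over all windows. The windows of Ascl2, Cd81 and Tssc4 have 23 each, that of Phlda2 has 26 and that of Slc22a18 has 2. The 4 windows of Igf2 range from 2 to 24. TATAAA on either strand, the core of the TATA box, was found in the windows of Phlda2 and Cd81 and is in 13.6% of all windows. A match of letters is a description and not a binding site.

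H19 also carries a microRNA, miR-675, in its transcript. Its mature products are shown because the H19 RNA is their precursor, with the seed (bases 2 to 8) in capitals. They lie on the minus strand at chr7:142577112-142577133 and chr7:142577078-142577099 and their seeds differ.
miR-675-5p: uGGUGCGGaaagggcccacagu
miR-675-3p: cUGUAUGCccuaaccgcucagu
The row of the microRNA itself held 0 counts in every library, so no level of miR-675 was read. It shares 84 exon bases with H19 on the same strand, where reads may not be assigned to it, so this 0 sets no limit on its level.

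The libraries held 15966412 and 21543385 counts in I53A replicates 1 and 2, and 17010432 and 15505018 counts in CTL replicates 1 and 2. Ring1 fell to 2.54 and 2.91 CPM (counts scaled to a common library size) in I53A, against 24.2 and 33.3 CPM in CTL (-3.38 ± 0.31 on the log2 scale, ± SE; edgeR's quasi-likelihood test, adjusted p = 0.000172). Rnf2 did not pass that test (59.0 CPM in I53A and 52.2 CPM in CTL, adjusted p = 0.681), and its count does not read the substituted base. Over 14550 tested genes, 977 were called at an adjusted p under 0.05, 826 higher and 151 lower in I53A. Offsets for GC content and exon length gave 727 higher and 606 lower. The count was 289 without CTL replicate 1, 603 without CTL replicate 2, 1580 without I53A replicate 1 and 1586 without I53A replicate 2. I53A replicate 1 was a male library by its Y-linked reads (1868 counts of Ddx3y) and the other 3 libraries were not (1 or 2 counts). Markers of basal keratinocytes and of the sort gate (9 of 9 tested) summed to 23856 and 21094 CPM in I53A, against 30404 and 33961 CPM in CTL. Most of the sum was Krt5 (14040 and 11505 CPM in I53A, 17517 and 21216 CPM in CTL). Krt15 fell and the other 8, Krt5 among them, were not called. Of those 8, Epcam was higher in both I53A libraries (133 and 159 CPM, against 107 and 85.9 CPM in CTL). None of the tested endothelial (6), melanocyte (3), immune (4) and suprabasal (4) markers was called. Of 6 hair follicle markers Lhx2 and Krt79 rose and Tchh fell.

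H19 was lower in I53A epidermis, while the values of Igf2, its partner across the control region, overlapped between the groups. H19 fills positions 142575529 to 142578143 of chromosome 7 (GRCm38, also called mm10; minus strand) and is annotated as a long intergenic non-coding RNA. It had 5066 and 5118 CPM in I53A replicates 1 and 2, against 8185 and 8845 CPM in CTL replicates 1 and 2. Both I53A libraries lay below both CTL libraries, at 59.8% of the CTL mean. The means were 5092 ± 36.4 CPM in I53A and 8515 ± 466 CPM in CTL (SD, n = 2 each), a log2 fold change of -0.74 ± 0.17 (SE). The replicates of a group differed by 1.01-fold in I53A and 1.08-fold in CTL.

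H19 was among the most abundant transcripts of these cells. It made up 0.499% and 0.539% of all counts in I53A, against 0.808% and 0.861% in CTL, and ranked 6 and 7 by count among all genes in I53A and 4 in both CTL libraries. In the fit over all genes 6.71% of all tested genes were called and 1.04% were called lower, and 1 of the 9 genes, H19, lay past the threshold. This place is a description and no test, and nothing is read from it, since the genes were chosen with these values known. H19 did not lie past the threshold under 3 of the 13 alternatives, among them leaving out CTL replicate 1 (log2 fold change -0.80) and leaving out CTL replicate 2 (-0.69).

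Igf2 encodes a growth factor of the fetus and lies at 142650766 to 142666816 on the same strand. It had 2878 and 2655 CPM in I53A, against 2249 and 2977 CPM in CTL. Both I53A values fell between the CTL values. The means were 2767 ± 157 CPM in I53A and 2613 ± 515 CPM in CTL (SD, n = 2 each), a log2 fold change of 0.08 ± 0.17 (SE). Offsets for GC content and length gave -0.19 and leaving out CTL replicate 1 gave -0.11, so no direction is drawn for Igf2.

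The ratio of H19 to Igf2 counts does not depend on how the libraries are scaled. It was 1.76 and 1.93 in I53A replicates 1 and 2, against 3.64 and 2.97 in CTL replicates 1 and 2. The ratios did not overlap between the groups, with means of 1.84 ± 0.118 in I53A and 3.31 ± 0.473 in CTL (SD, n = 2 each). Per kb of exon H19 exceeded Igf2 by 4.10 and 4.48 times in I53A, against 8.47 and 6.91 times in CTL. These lengths merge all annotated exons of a gene (2460 bases for H19 and 5723 for Igf2), and the transcripts present may be shorter. The difference between the genes was not tested, and the ratio does not show that Igf2 stayed the same.

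**Figure D1:**
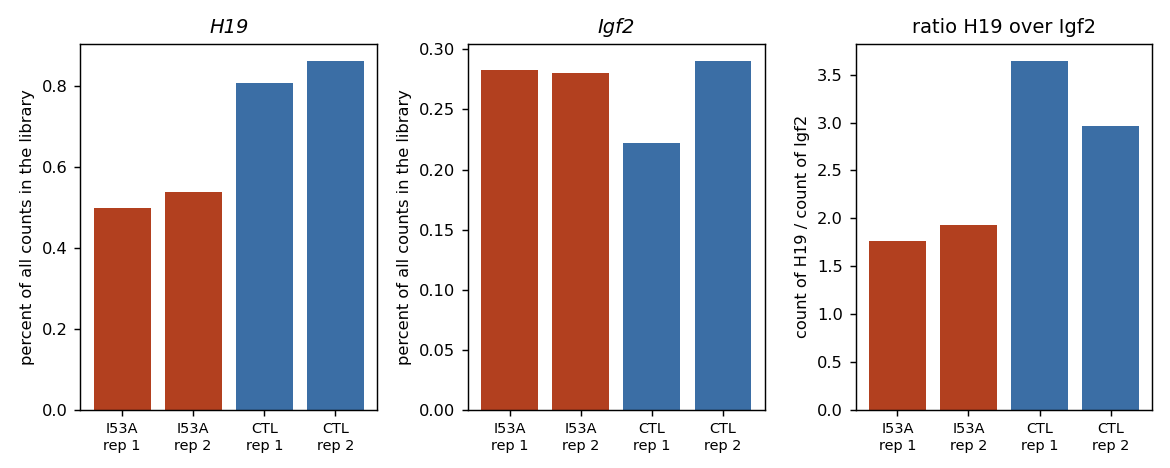
Shares of H19 and Igf2 in percent of all counts of a library, and the ratio of their counts, in I53A replicates 1 and 2 (red) and CTL replicates 1 and 2 (blue), each bar 1 library. The ratio was 1.76 and 1.93 in I53A and 3.64 and 2.97 in CTL, while the shares of Igf2 overlapped between the groups.

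Connective tissue is known for high H19 and Igf2 before and around birth, so markers of its cells are given here. Of 16 fibroblast markers, all tested, 5 rose in I53A and none fell (Col5a1, Col6a1, Dcn, Fbn1 and Thy1; edgeR quasi-likelihood test), where 5.68% of all tested genes were higher. The whole marker list summed to 3723 and 4049 CPM in I53A, against 3067 and 3295 CPM in CTL, and no marker was at 0 in every library. Postn, the most abundant of these markers in both groups, had 1036 and 1461 CPM in I53A, against 1371 and 1483 CPM in CTL. It was the only fibroblast marker with a negative log2 fold change (-0.19 ± 0.18 SE), overlapped between the groups and was not called. Of 8 skeletal muscle markers 4 were tested and Myh4 fell, and the list summed to 1.34 and 4.72 CPM in I53A and 8.51 and 7.09 CPM in CTL. The part of these cells in the levels of H19 and Igf2 was not tested. In these bulk libraries fewer cells that express a gene and less RNA per cell cannot be told apart.

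Igf2os, the transcript antisense to Igf2, was higher in each I53A library than in each CTL library but did not pass the test. It had 47.0 and 27.5 CPM in I53A, against 18.1 and 25.5 CPM in CTL (log2 fold change 0.76 ± 0.28 SE, adjusted p = 0.159, edgeR quasi-likelihood test). It was past the threshold without I53A replicate 2 (log2 fold change 1.11). Igf2 and Igf2os share 98 exon bases, and with the strand setting not given, reads there cannot be assigned to a strand. Igf2os lies at 142659693 to 142670356 (plus strand), so much of it lies within the gene body of Igf2. Reads from Igf2 introns over exons of Igf2os therefore cannot be told from Igf2os either. The count of Igf2os was 0.0163 and 0.0104 of that of Igf2 in I53A, against 0.00805 and 0.00857 in CTL.

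Kcnq1ot1, the RNA of the second control region, differed little between the groups. It lies at 143203458 to 143296549 on the minus strand, inside the body of Kcnq1, and is annotated as a single antisense transcript of 93092 bases. It had 653 and 517 CPM in I53A, against 525 and 604 CPM in CTL. The groups overlapped, with means of 585 ± 95.9 CPM in I53A and 564 ± 55.3 CPM in CTL (SD, n = 2 each) and a log2 fold change of 0.05 ± 0.16 (SE). Its sign turned without I53A replicate 1 (-0.12) and without CTL replicate 1 (-0.05). Kcnq1 itself had 0 and 14 counts in I53A and 0 and 1 counts in CTL, too few to test, and shares 121 exon bases with Kcnq1ot1 on the opposite strand.

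**Figure D2:**
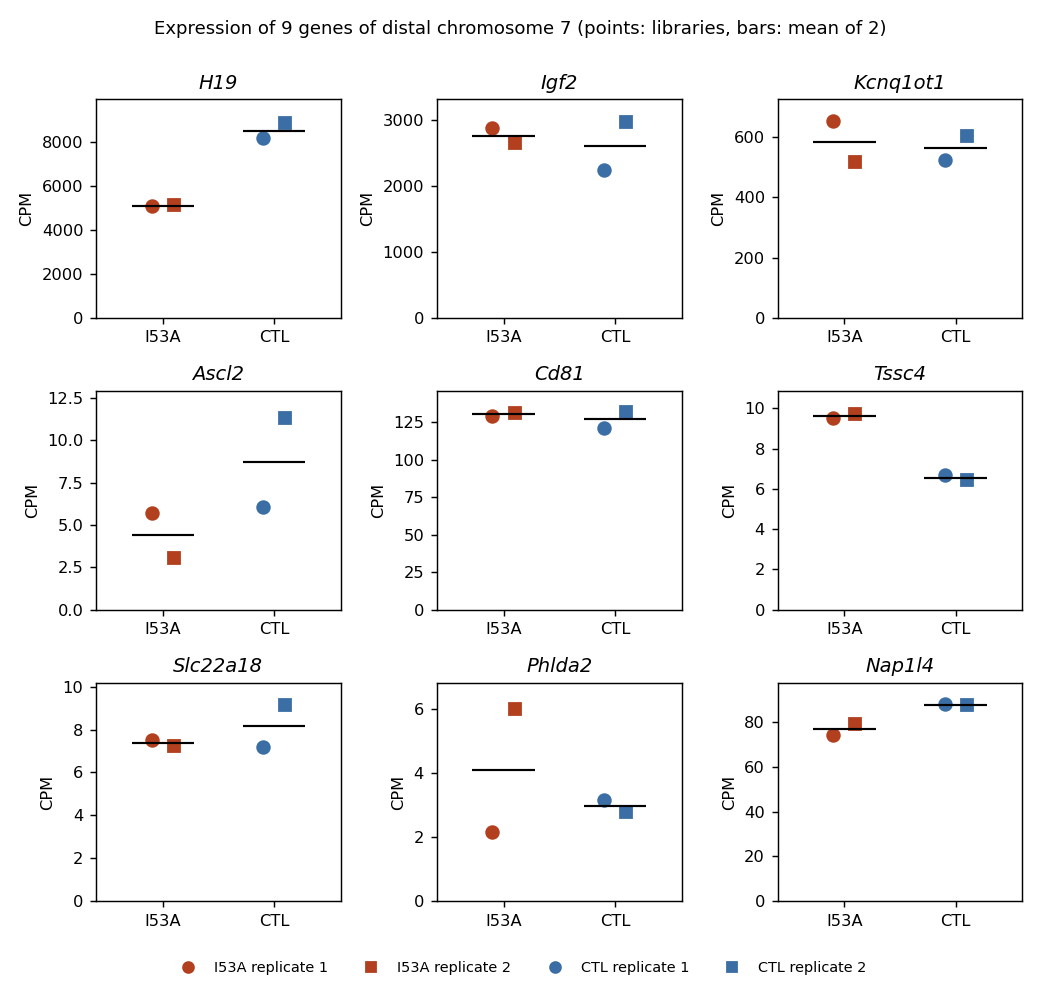
CPM of the 9 genes in each library, with I53A (red) left of CTL (blue), circles for replicate 1 and squares for replicate 2, black bars at the mean of 2 libraries and every axis starting at 0. H19, Nap1l4 and Ascl2 are lower and Tssc4 is higher in both I53A libraries than in both CTL libraries. Of all tested genes 47.9% did not overlap between the groups. The replicates of Ascl2 and Phlda2 lie apart within a group.

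Ascl2, Cd81 and Tssc4 lie between H19-Igf2 and Kcnq1ot1, on its side away from Cdkn1c. Ascl2 encodes a transcription factor of the basic helix-loop-helix family that the mouse placenta needs, and lies at 142966829 to 142969264 (minus strand). It had 5.73 and 3.04 CPM in I53A, from 90 and 69 counts, against 6.07 and 11.3 CPM in CTL, from 102 and 171 counts. The groups did not overlap, but the lower CTL library and the higher I53A library were close. The replicates differed by 1.88-fold in I53A and 1.87-fold in CTL, nearly as much as the groups, whose log2 fold change was -1.03 ± 0.43 (SE). It ranged from -1.50 without I53A replicate 1 to -0.51 without CTL replicate 2.

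Cd81, a tetraspanin of the cell surface at 143052739 to 143067934 (plus strand), had 129.6 and 131 CPM in I53A, against 121 and 132 CPM in CTL. The I53A values lay within the CTL range, with a log2 fold change of 0.04 ± 0.14 (SE). Offsets for GC content and length turned it to -0.05, and leaving out CTL replicate 1 to -0.03.

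Tssc4, whose human protein takes part in spliceosome assembly, lies at 143069249 to 143071093 (plus strand). It had 9.54 and 9.70 CPM in I53A, from 150 and 220 counts, against 6.67 and 6.43 CPM in CTL, from 112 and 97 counts. Both I53A libraries lay above both CTL libraries, and the replicates of a group differed by 1.02-fold and 1.04-fold. The log2 fold change was 0.55 ± 0.30 (SE), and between 0.37 and 0.58 under the alternatives. Tssc4 shares 220 exon bases with Trpm5, a channel gene on the opposite strand that had 11 and 12 counts in I53A and 2 and 0 counts in CTL, and reads in that overlap cannot be assigned.

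Slc22a18, Phlda2 and Nap1l4 lie on the other side of Kcnq1ot1, beyond Cdkn1c. Slc22a18, a membrane transporter gene at 143473736 to 143499334 (plus strand), had 7.51 and 7.23 CPM in I53A, against 7.20 and 9.14 CPM in CTL. The I53A values lay within the CTL range, with a log2 fold change of -0.15 ± 0.31 (SE), which was 0.03 without CTL replicate 2.

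Phlda2, which restrains growth of the mouse placenta, lies at 143501545 to 143503150 (minus strand) and was the lowest of the 9 genes in CTL. It had 2.16 and 5.99 CPM in I53A, from 34 and 136 counts, against 3.15 and 2.78 CPM in CTL, from 53 and 42 counts. I53A replicate 2 was the highest library and I53A replicate 1 the lowest, 2.77-fold apart, while the CTL libraries were 1.13-fold apart. The log2 fold change of 0.53 ± 0.52 (SE) was -0.46 without I53A replicate 2 and 1.01 without I53A replicate 1, so that single libraries set its sign.

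Nap1l4, a histone chaperone gene at 143513579 to 143549106 (minus strand), had 74.1 and 79.2 CPM in I53A, against 87.7 and 87.5 CPM in CTL. Both I53A libraries lay below both CTL libraries, by a log2 fold change of -0.19 ± 0.15 (SE). In all, the groups did not overlap for 4 of the 9 genes (H19, Nap1l4, Tssc4 and Ascl2), as for 47.9% of all tested genes. The median log2 fold change of the 9 genes was 0.04, beside -0.01 over all tested genes.

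Levels between genes were compared per kb of exon, with all annotated exons of a gene merged. The transcripts present may be shorter, and coverage along them was not checked, so the order is approximate. In I53A the order was H19 (2069.8 CPM per kb), Igf2 (483), Cd81 (45.3), Nap1l4 (24.8), Kcnq1ot1 (6.28), Tssc4 (5.21), Slc22a18 (4.34), Phlda2 (3.64) and Ascl2 (2.70). In CTL it was H19 (3461 CPM per kb), Igf2 (457), Cd81 (44.0), Nap1l4 (28.3), Kcnq1ot1 (6.06), Ascl2 (5.36), Slc22a18 (4.81), Tssc4 (3.55) and Phlda2 (2.65). From H19 to Kcnq1ot1 each step was larger than the range of the replicates in both groups. Below Kcnq1ot1 the replicate ranges of neighbours overlapped for Phlda2 with Slc22a18 and with Ascl2 in I53A, and for Ascl2 with Kcnq1ot1 and with Slc22a18 in CTL. Ascl2 stood the last in I53A and the sixth in CTL, and the difference in its place was not tested.

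**Figure D3:**
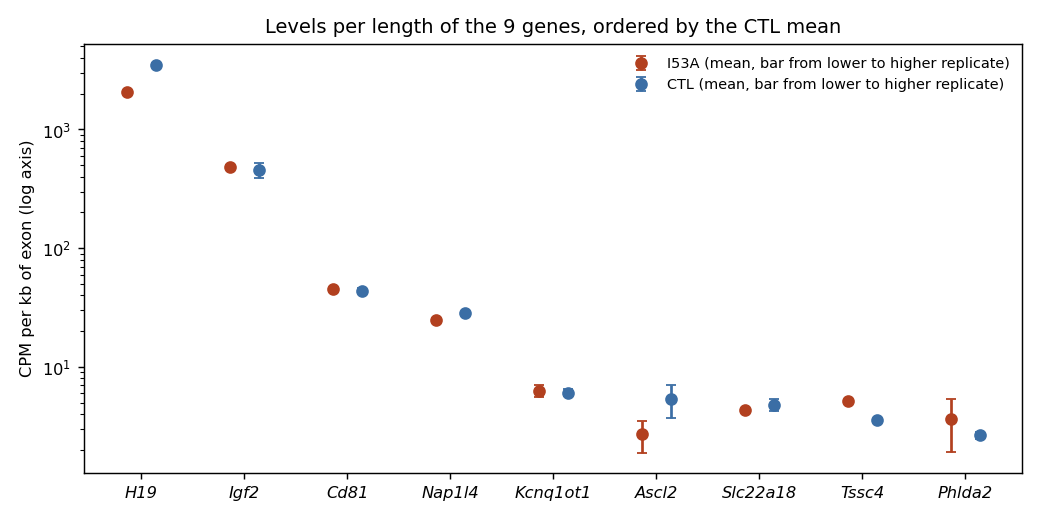
Levels in CPM per kb of exon on a log axis, for I53A (red, left) and CTL (blue, right), with points at the mean of 2 libraries and bars between the lower and the higher replicate. H19 stands above Igf2 and both stand above the other 7 genes in each group.

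Among genes that surround the 9, Cdkn1c was the only gene called. It encodes an inhibitor of cyclin-dependent kinases, is expressed from the maternal copy, and lies at 143458339 to 143461050 (minus strand), between Kcnq1ot1 and Slc22a18. Cdkn1c had 74.2 and 98.3 CPM in I53A, against 22.1 and 12.0 CPM in CTL, and rose by 2.33 ± 0.27 on the log2 scale (± SE; edgeR's quasi-likelihood test, adjusted p = 0.000697). It stayed past the threshold under each of the 13 alternatives, with log2 fold changes from 1.97 to 2.84. Its count was 0.114 and 0.190 of that of Kcnq1ot1 in I53A, against 0.0420 and 0.0199 in CTL. Slc22a18 and Phlda2, its nearest neighbours among the 9 genes, had log2 fold changes of -0.15 ± 0.31 and 0.53 ± 0.52 (SE) in the same libraries, and the difference between genes was not tested.

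Within 500 kb of the 9 genes 42 other genes were counted, of which 21 passed the filter on low counts. Of these 1 rose, none fell and 20 did not pass the test, where 6.71% of all tested genes were called. Their median log2 fold change was 0.02. The most abundant of those not called were Ctsd, the lysosomal protease cathepsin D, with 286 CPM in I53A and 261 CPM in CTL, and Dhcr7, an enzyme of cholesterol synthesis, with 43.9 CPM in I53A and 47.8 CPM in CTL. Osbpl5, a lipid transfer protein gene, had 34.8 CPM in I53A and 39.5 CPM in CTL, and the phosphatase gene Dusp8 had 30.5 CPM in I53A and 32.8 CPM in CTL. Cars, the cysteinyl-tRNA synthetase gene beyond Nap1l4, had 24.1 CPM in I53A and 27.7 CPM in CTL. From Ctsd to Cars the adjusted p ranged from 0.679 to 0.893 in the edgeR quasi-likelihood test. Igf2os, given above, was also among the most abundant genes not called. Its means were 37.2 CPM in I53A and 21.8 CPM in CTL (adjusted p = 0.159, same test).

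The count of neighbours called moved with the setting. With DESeq2 Tnnt3, a troponin of skeletal muscle, was called lower beside Cdkn1c. It had 0 and 6 counts in I53A and 38 and 21 counts in CTL (adjusted p = 0.0549 in the edgeR quasi-likelihood test). Tnnt3 is 1 of the 8 muscle markers given above, and the part of muscle RNA in its level was not tested. Offsets for GC content and length called Tnnt3 and Ifitm10 lower. Without I53A replicate 2 Igf2os was called higher and Ifitm10 and Tnnt3 lower beside Cdkn1c, and without I53A replicate 1 Shank2 was called higher (0.191 and 3.35 CPM in I53A and 0.655 and 0.331 CPM in CTL). These genes were singled out after their values were seen.

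**Figure D4:**
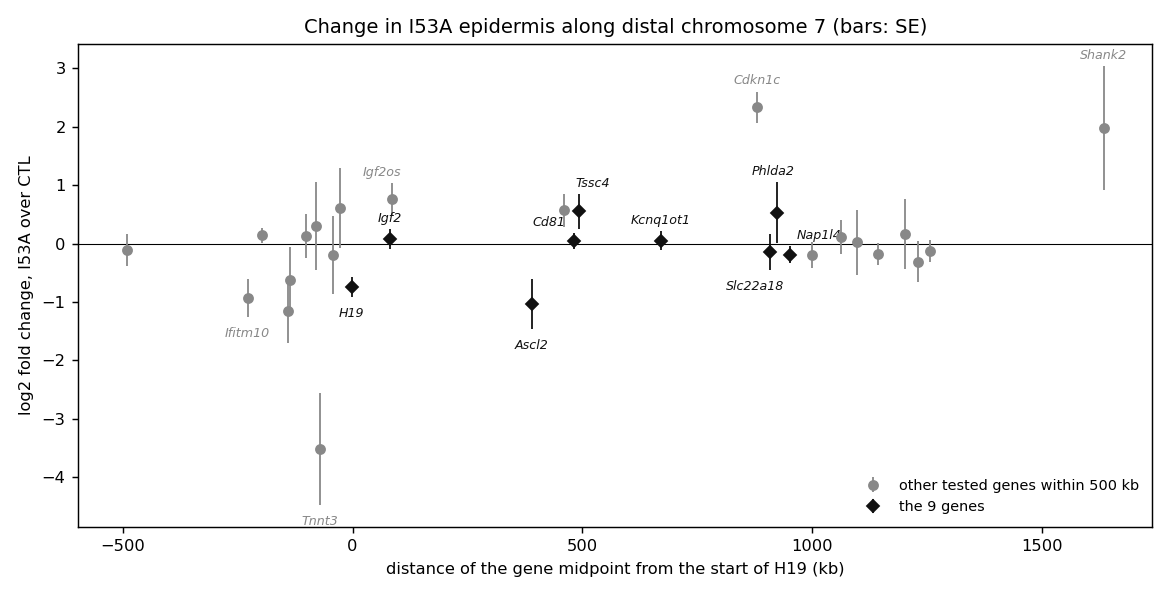
Log2 fold change of I53A over CTL (vertical axis, bars are SE) against the distance of each gene's midpoint from the start of H19 in kb, for the 9 genes (black diamonds) and the other 21 tested genes within 500 kb (grey circles). Cdkn1c stands at 2.33 while the 9 genes lie between -1.03 and 0.55, and the wide bars of Tnnt3 and Shank2 belong to genes of low counts.

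Some transcripts of genes that act with Igf2 rose. Of 22 genes of insulin-like growth factor signalling 21 were tested, 7 rose, none fell and 14 did not pass the test, where 5.68% of all tested genes were higher and 1.04% lower. Grb10, an imprinted adaptor that dampens signalling of the receptors, rose to 221 and 190.0 CPM in I53A, against 55.1 and 47.3 CPM in CTL (log2 fold change 2.0 ± 0.16 SE, adjusted p = 8.29e-05). Igf2bp2, an RNA-binding protein named for the Igf2 messenger, rose to 129 and 163 CPM in I53A, against 60.4 and 54.6 CPM in CTL (1.34 ± 0.17, adjusted p = 0.00106). Igfbp3, which binds the growth factors outside the cell, rose to 126 and 121 CPM in I53A, against 43.1 and 57.8 CPM in CTL (1.29 ± 0.17, adjusted p = 0.00153). These adjusted p come from the edgeR quasi-likelihood test. The median log2 fold change of the list was 0.44. Without CTL replicate 1 the test called 3 of these genes, and Igfbp3 was then not past the threshold. Of the receptors, singled out after their values were seen, Igf1r had 729 and 304 CPM in I53A, against 260 and 253 CPM in CTL (adjusted p = 0.0931), with I53A replicate 1 apart from the other 3 libraries. Igf2r, which takes Igf2 up for breakdown, had 176 and 180 CPM in I53A, against 151 and 133 CPM in CTL (adjusted p = 0.245). Insr, the insulin receptor gene, had 205 and 149 CPM in I53A, against 168 and 139.6 CPM in CTL, overlapping between the groups (adjusted p = 0.649).

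Regulators of imprinting control regions held 1 called gene among 22 tested, where 6.71% of all tested genes were called. Zfp57, a zinc finger protein that keeps methylation at imprinted control regions in the mouse embryo, rose to 28.5 and 28.4 CPM in I53A, against 8.69 and 7.55 CPM in CTL (log2 fold change 1.81 ± 0.23 SE, adjusted p = 0.00124, edgeR quasi-likelihood test). Ctcf, the insulator protein gene, had 141 and 154 CPM in I53A and 182 and 171 CPM in CTL and did not pass the test (adjusted p = 0.367). The list's median log2 fold change was -0.07. With offsets for GC content and length 5 of these genes were called, Zfp57 higher and Dnmt1, Uhrf1, Ehmt1 and Ehmt2 lower.

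Of 40 imprinted genes of other chromosomes or chromosomal regions 32 were tested, 11 rose, none fell and 21 did not pass the test. Over all tested genes 5.68% were higher and 1.04% lower. Zdbf2 rose to 109.6 and 108 CPM in I53A, against 10.3 and 10.6 CPM in CTL (log2 fold change 3.38 ± 0.18 SE, adjusted p = 1.14e-05). Sfmbt2, a Polycomb group gene, rose to 57.9 and 52.2 CPM in I53A, against 2.80 and 1.86 CPM in CTL (4.55 ± 0.27, adjusted p = 2.32e-05). Ppp1r9a, which encodes an actin-binding protein known from neurons, rose to 51.4 and 62.3 CPM in I53A, against 8.45 and 7.22 CPM in CTL (2.86 ± 0.22, adjusted p = 7.92e-05). These adjusted p come from the edgeR quasi-likelihood test. The median log2 fold change was 0.64 over this list and 0.04 over the 9 genes, and the difference between the lists was not tested. Without CTL replicate 1 the count was 7. Grb10 is in this list and in that of insulin-like growth factor signalling, and Dcn is in this list and among the fibroblast markers.

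Genes with a profile like those of the 3 main transcripts were found by the root mean square difference of log2 CPM over the 4 libraries, each gene centred on its own mean, among 10356 genes of at least 5 CPM. Closest to H19 were Ggta1 (difference 0.021), Ndufaf3 (0.0317) and Gapdhs (0.0331). Ggta1 had 72.5 and 70.9 CPM in I53A, against 113 and 122 CPM in CTL. Closest to Igf2 were Tmsb10 (0.00999), Zfp595 (0.0103) and Zcrb1 (0.0151), and closest to Kcnq1ot1 were Lrp5 (0.00792), Esco1 (0.00831) and Zfp710 (0.0104). With 4 libraries many genes share such a profile.

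**Figure D5:**
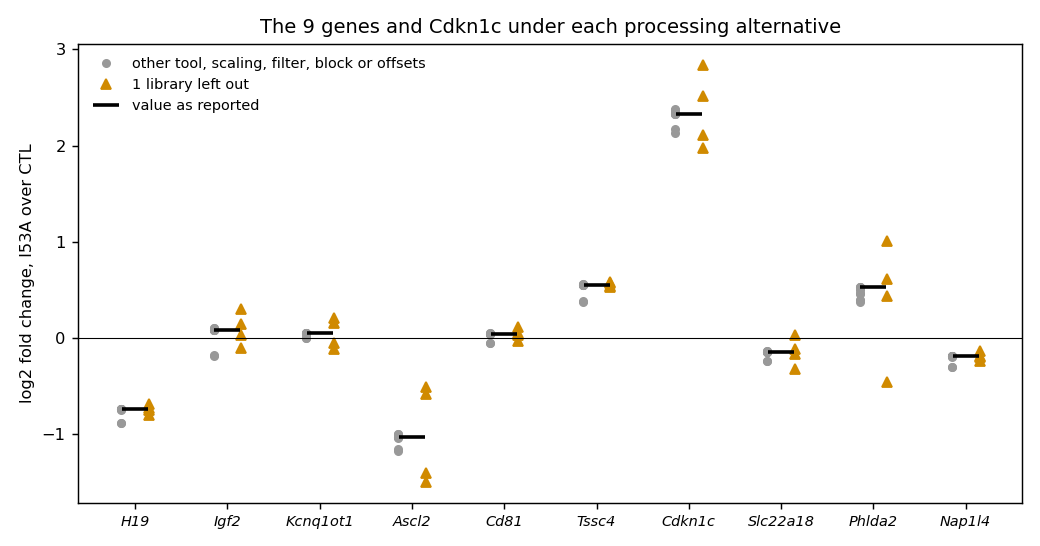
Log2 fold change of I53A over CTL for the 9 genes and Cdkn1c, with a black bar at the value reported, orange triangles with 1 library left out and grey circles under other tools, scalings, filters, the block or the offsets. H19 lies between -0.89 and -0.69 and Cdkn1c between 1.97 and 2.84, while Phlda2 spans -0.46 to 1.01.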

How the data were processed

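The authors deposited unnormalized counts for 24453 gene symbols, 1 file per library. Per the labels' protocols, EpCAM-positive, Sca1-positive cells high for α6-integrin were sorted from back skin, 10 ng of total RNA was amplified as cDNA (Ovation V2 chemistry), and single reads of 100 nucleotides were taken. Build mm10 and the tools HTSeq 0.6.1, TopHat2 2.0.13, DESeq2 1.6.3 and Cufflinks 2.2.1 are listed, without roles, in the submitters' processing notes. Neither annotation nor strand setting is given in the sources used here.

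Genes were kept by filterByExpr (minimum count 10, minimum total 15), scaled with TMM (factors 0.985 and 1.05 in I53A, 0.988 and 0.974 in CTL) and compared with the quasi-likelihood test of edgeR 4.0.16 in R 4.3.3, two-sided, with Benjamini-Hochberg adjustment over 14550 genes. The tested genes held at least 99.89% of the counts of each library. All 9 genes were tested, and all 9 had 10 counts or more in both CTL libraries. CPM use library sizes multiplied by the TMM factors, means are ± SD over 2 libraries, and fold changes are I53A over CTL. Replicates were separate libraries by their counts (chi-square per degree of freedom 44.3 in I53A and 13.8 in CTL). Positions and exon lengths came from GENCODE M21 on GRCm38, matched for 98.5% of symbols, and sequences from RefSeq.

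The 9 genes and the gene lists were chosen with earlier results of these data known. Named beside the 9 genes are the targeted genes, Cdkn1c and Kcnq1, each called neighbour within 500 kb and the 6 most abundant others. Up to 3 called genes each way of each list are also named. Ctcf, Krt5, Epcam, Postn and the called cell type markers were named after their values were seen. Each comparison was repeated with limma-voom (limma 3.58.1), DESeq2 1.42.0, RLE scaling, no filter, a filter at 1 CPM in 2 libraries, each library left out, the replicate number as a block, loess offsets (span 0.5) for GC content and length, and, chosen after seeing the data, edgeR's earlier quasi-likelihood fit.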

Additional observations from a re-analysis of the deposited data

How the results depend on the processing

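Over 13 alternatives the fold changes of the 9 genes were recomputed 117 times. Of these, 103 did not turn in sign and kept their side of the threshold. Of the rest, 10 turned in sign, 3 no longer passed the threshold and 1 newly passed it. The 103 include Kcnq1ot1 at 0.00 with the offsets, which has no direction. All of the 9 genes but H19 lay short of the threshold to begin with, so this count is a description and no test. With 1 library left out the count of called genes ranged from 289 to 1586, of the 9 genes from 0 to 1, of neighbours from 1 to 4, of insulin-like growth factor genes from 3 to 9, of regulators of control regions from 1 to 2 and of imprinted genes elsewhere from 7 to 15. H19 did not lie past the threshold without CTL replicate 1 and without CTL replicate 2. With 1 library left out, log2 fold changes ranged from -0.11 to 0.30 for Igf2, from -0.12 to 0.21 for Kcnq1ot1, from -0.46 to 1.01 for Phlda2, from -0.32 to 0.03 for Slc22a18 and from -0.03 to 0.11 for Cd81.

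The numbers of the replicates mark no stated pairing, and deviations of same-numbered libraries correlated at 0.0409 across genes. With the replicate block 1274 genes were called, 0 of the 9 genes (H19 at -0.74) and 2 neighbours.

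With offsets for GC content and length Igf2 turned to -0.19 and Cd81 to -0.05, 3 neighbours and 5 regulators were called, and the median of all genes moved to -0.14. With the offsets and the replicate block together 2186 genes were called, 2 of the 9 genes (H19 and Ascl2), 3 neighbours and 5 regulators, with Igf2 at -0.18 and Cd81 at -0.05. DESeq2 called 2 neighbours. The causes were not tested. Other scalings moved the levels of the 9 genes by at most 5.32%. Phlda2, Ascl2, Slc22a18 and Tssc4 rest on 34 to 220 counts per library and 2 libraries a group.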
